A study of Mus musculus with 12 samples.

Results

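The 39 genes examined here encode plasma proteins of the complement and blood clotting cascades. A gene was taken as measured where a probe set on the array carried exactly 1 gene symbol and that symbol was the gene's own. That left 35 of the 39, each read by 1 probe set, out of 22180 genes in all, of which 16 belong to complement and 19 to coagulation. C3, Cfd, Masp2 and Klkb1 had no such probe set and are not analysed here. The probe sets for Masp2 and Klkb1 also carried the symbols Tardbp and Cyp4v3. The livers came from male mice in 4 groups with 3 arrays each, and the groups were Lats2-CKO mice on a high-cholesterol (Paigen) diet, wild-type mice on that diet, Lats2-CKO mice on normal chow, and wild-type mice on normal chow. The high-cholesterol food held 1.25% cholesterol and the chow held none, and the mice were 8 weeks old before 9 weeks of feeding. Lats2 is a kinase of the Hippo pathway. The labels also write Lats2-KO for the mutants, and they name neither the strain, nor the cells that lost Lats2, nor a Cre driver. They call the 3 arrays of a group biological replicates without saying whether livers were pooled.

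Complement works as a chain of proteases. Mannose-binding lectins and the C1 complex recognise microbial surfaces and start it, C2 and factor B form the convertases, and C5 to C9 assemble into a pore in the target membrane. Clotting runs through the contact factors and the vitamin K dependent proteases to thrombin, which turns fibrinogen into fibrin. Antithrombin, protein C and C1 inhibitor restrain these steps, and plasmin dissolves the clot. Hepatocytes make and secrete most of these proteins, and several of the genes are known to respond to inflammation.

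Promoters of 4 genes are shown because these genes were among the 6 members that were lower without overlap on the high-cholesterol diet in Lats2-CKO livers. Each window holds 300 bases, given as 250 before to 50 after a start of the gene, 5′ to 3′ on the gene's own strand, from RefSeq on build GRCm38.p6. For the 3 genes on the minus strand that start lies a little inside the outer end of the gene in RefSeq's gene table. F11 lies on the minus strand at chr8:45261982-45262281, C8b on the plus strand at chr4:104766067-104766366, C8a on the minus strand at chr4:104876349-104876648 and C4bp on the minus strand at chr1:130661569-130661868. C8b and C8a are neighbouring genes. Capitals mark matches, on either strand, to GTTAAT (a core of the site of HNF1, a hepatocyte transcription factor), TTGCNNAA (a C/EBP core), TTCNNNGAA (a STAT site) or TGTTTAC (a FOXA site).
F11: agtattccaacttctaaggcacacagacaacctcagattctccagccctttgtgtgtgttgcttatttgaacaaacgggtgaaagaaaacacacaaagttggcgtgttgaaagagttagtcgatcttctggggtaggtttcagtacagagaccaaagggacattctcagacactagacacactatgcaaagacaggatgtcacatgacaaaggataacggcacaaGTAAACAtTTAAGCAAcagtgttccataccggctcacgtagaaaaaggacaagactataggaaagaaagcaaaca
C8b: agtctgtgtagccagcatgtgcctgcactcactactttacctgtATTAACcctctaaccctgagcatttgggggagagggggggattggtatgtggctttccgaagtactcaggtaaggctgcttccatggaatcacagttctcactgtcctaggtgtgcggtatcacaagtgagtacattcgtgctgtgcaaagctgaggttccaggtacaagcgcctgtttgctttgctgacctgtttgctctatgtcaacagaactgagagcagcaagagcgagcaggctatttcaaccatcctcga
C8a: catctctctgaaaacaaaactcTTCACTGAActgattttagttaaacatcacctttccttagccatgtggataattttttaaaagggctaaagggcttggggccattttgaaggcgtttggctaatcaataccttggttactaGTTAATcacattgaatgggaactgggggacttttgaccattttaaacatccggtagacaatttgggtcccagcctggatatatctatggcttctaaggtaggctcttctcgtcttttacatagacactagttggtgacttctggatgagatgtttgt
C4bp: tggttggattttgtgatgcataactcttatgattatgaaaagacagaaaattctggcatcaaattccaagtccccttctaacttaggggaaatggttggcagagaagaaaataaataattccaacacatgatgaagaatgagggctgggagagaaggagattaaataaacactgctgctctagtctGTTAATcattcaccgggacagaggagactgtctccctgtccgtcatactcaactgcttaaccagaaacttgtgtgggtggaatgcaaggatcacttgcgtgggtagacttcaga
In the F11 window the capitals are a FOXA match followed by a C/EBP match. C8b and C4bp each have 1 HNF1 match, and C8a has a STAT and an HNF1 match. No matches overlapped in these windows. Of the 35 measured members, 27 had a promoter in the table. GTTAAT was found in 11 of these 27 (40.7%), among them the promoters of Fga, Fgb, Hc and F2, against 7.1% of 32851 promoters of the same length. TTGCNNAA was in 7 (25.9%) against 10.8%, TTCNNNGAA in 7 (25.9%) against 8.3%, and TGTTTAC in 1 (3.7%), that of F11, against 3.65%. The motifs were picked after the expression values had been seen. A match describes letters only and was not tested as a binding site.

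Lats2 was read at log2 values of 4.62, 4.89 and 4.99 in Lats2-CKO livers on the high-cholesterol diet, against 5.12, 5.71 and 5.97 in wild-type livers on that diet. On normal diet it was read at 4.37, 4.76 and 4.79 in Lats2-CKO livers, against 5.15, 5.14 and 5.69 in wild-type livers. All 6 mutant arrays were below all 6 wild-type arrays, with a change over both diets of −0.72 ± 0.16 (SE), short of significance after adjustment (limma, adjusted p = 0.486). Hepatocyte markers averaged 12.26 to 12.37 on every array. Wild-type normal-diet array 3 stood apart from its group, with a mean correlation over all genes of 0.981 to its own group and 0.987 to the wild-type high-cholesterol arrays, and the results it moved most are given with and without it. The arrays also fell into a set of 6 with a median log2 value of 3.48 to 3.49 (4 of them on normal diet) and a set of 6 with 3.42 to 3.43 (2 of them on normal diet), so diet changes are also given within each set, first for the set with the higher medians.

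**Figure D1:**
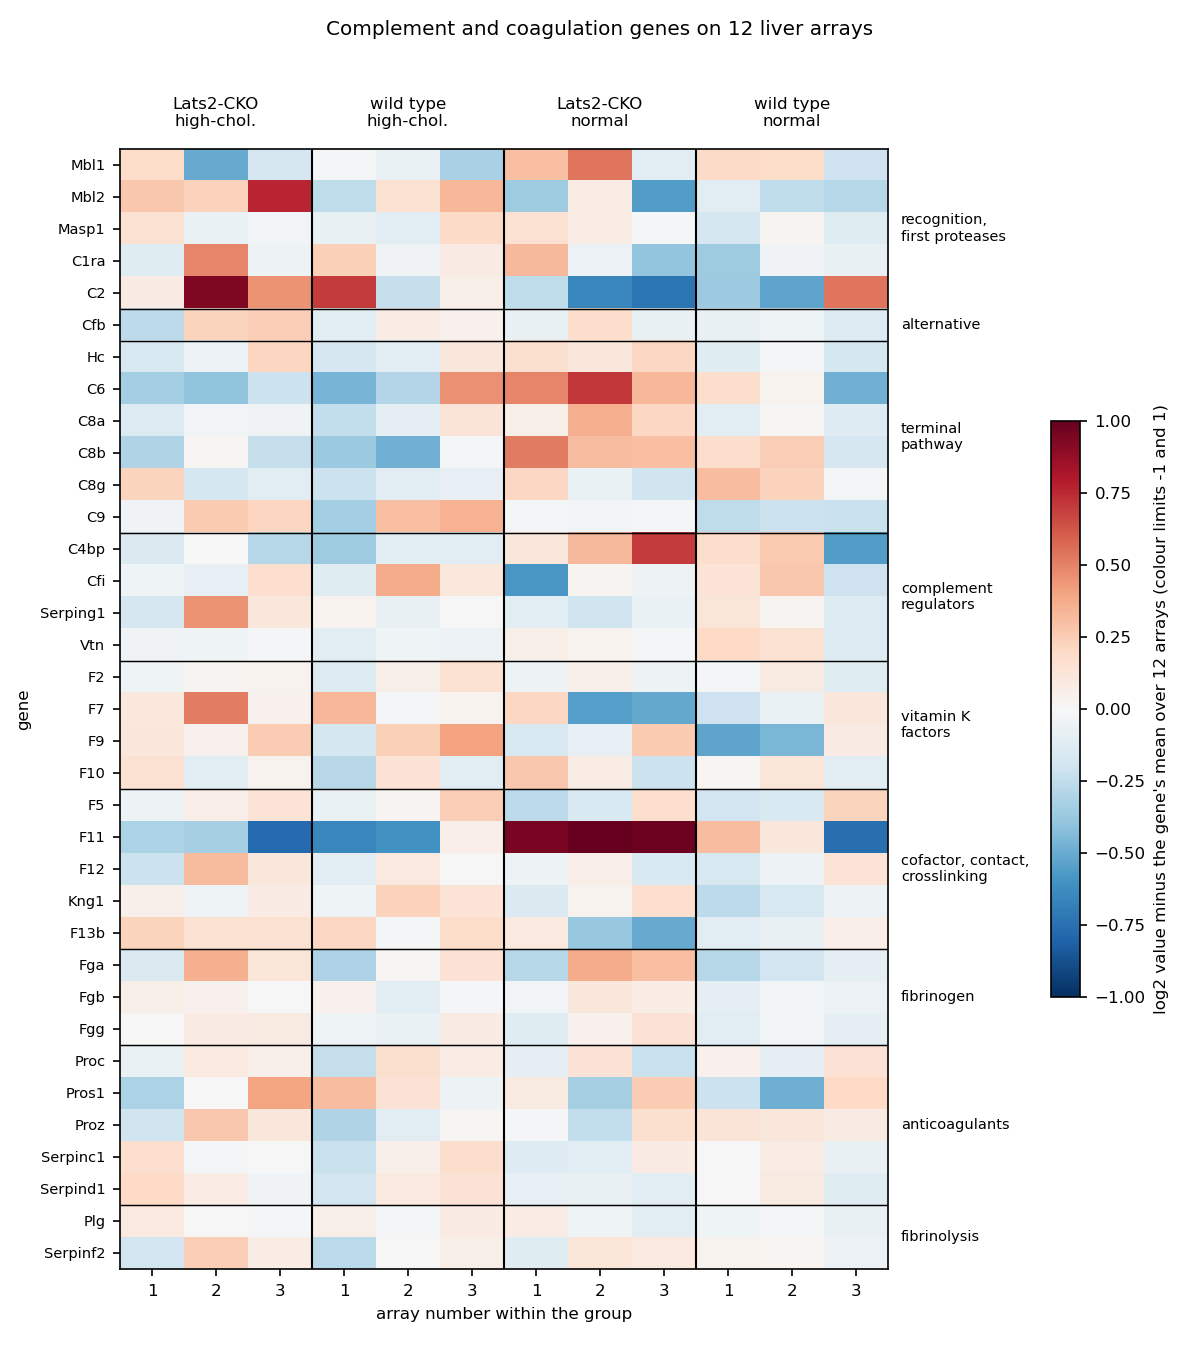
The 35 measured genes (rows, grouped by role) on the 12 arrays (columns, by group), coloured by the log2 value minus the gene's mean over all arrays. Most rows are pale, F11 has the widest range over the arrays (1.80) and Plg the narrowest (0.21).

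The members varied over the arrays about as much as all genes did. The range over the 12 arrays was under 1 log2 unit in 28 of 35 genes. Its median was 0.57, against 0.63 over all genes. It was smallest for Plg, the precursor of plasmin, at 0.21 and largest for F11, the contact pathway protease factor XI, at 1.80. Over the 5145 genes at least as bright as the dimmest member, the median range was 0.90. Arrays of the same group differed by a median SD of 0.177 over the members, 0.176 over all genes and 0.238 over those bright genes. The bright genes were not matched to the members in level, since 32 members lay above the 90th percentile of all genes. Mean log2 values ran from 6.15 for C1ra to 12.84 for Fgg. Probe sets differ in how strongly they bind, so no order of expression between genes was read from these means.

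The diet comparison asked what 9 weeks of the high-cholesterol food did to these genes. Averaged over both genotypes, the 95% interval of the change lay within 2-fold for 33 of 35 members (94.3%), against 94.6% of all genes. It lay within 1.5-fold for 26 (74.3%), against 81.1% of all genes. Over the bright genes these shares were 89% and 63.1%. The widest differences were lower values of F11, C8b and C6 and higher values of C2 and Mbl2. None of the 35 passed an adjusted p of 0.05 over all genes (limma), against 1.24% of all genes, 0.365% higher and 0.87% lower. An unadjusted p under 0.05 was found for 8 members (22.9%), against 18% of all genes. Of these members Mbl2, C2, F7 and F13b were higher, against 7.56% of all genes, and C6, C8b, C4bp and F11 were lower, against 10.4%. No member had all 6 arrays of one diet beyond all 6 of the other, against 0.379% of all genes higher and 0.974% lower. The median change of the 35 was 0.05, with 23 higher and 12 lower, beside a median of −0.02 over all genes. The median size of a change was 0.12 for the members, 0.10 for all genes and 0.20 for the bright genes.

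Within a genotype the picture was uneven. In Lats2-CKO livers no member passed (limma), against 0.271% of all genes, and 9 members (25.7%) had an unadjusted p under 0.05, against 13.4% of all genes. Of these 4 were higher, against 6.21% of all genes, and 5 were lower, against 7.24%. Arrays of the diets did not overlap for 4 members that were higher (Mbl2, C2, F13b and Serpind1), against 8.98% of all genes, and for 6 that were lower (C6, C8a, C8b, C4bp, Vtn and F11), against 10.5%. In wild-type livers no member and no gene of any kind passed, and 4 members (11.4%) had an unadjusted p under 0.05, against 10.6% of all genes. Of these 2 were higher, against 4.03% of all genes, and 2 were lower, against 6.56%. There C1ra and Kng1 were higher without overlap, against 4.97% of all genes, and C8g and Proz were lower, against 8.81%. Changes beyond 2-fold were fitted for 2 members (5.71%) in Lats2-CKO livers, F11 and C2, against 2.06% of all genes. None was fitted in wild-type livers, against 1.45% of all genes. In wild-type livers the 95% interval lay within 2-fold for all 35, against 90.8% of all genes.

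Among the genes that recognise targets and start complement, the largest differences were in C2 and Mbl2. C2, the protease that pairs with C4 in a convertase, had log2 values of 8.53, 9.39 and 8.91 in Lats2-CKO livers on the high-cholesterol diet, against 8.20, 7.80 and 7.72 in Lats2-CKO livers on normal diet. In wild-type livers C2 had 9.15, 8.23 and 8.51 on the high-cholesterol diet, against 8.09, 7.93 and 8.99 on normal diet. The mutant diet groups did not overlap, while the wild-type groups did, with normal-diet array 3 far above its group mates. The change was 1.04 ± 0.32 in Lats2-CKO livers (2.05-fold, limma, adjusted p = 0.185), 0.29 ± 0.32 in wild-type livers (adjusted p = 0.798) and 0.67 ± 0.23 over both genotypes (adjusted p = 0.159). Within the 2 array sets the change over both genotypes was 0.84 and 0.40. Mbl2, a mannose-binding lectin, had log2 values of 8.12, 8.08 and 8.61 in Lats2-CKO livers on the high-cholesterol diet, against 7.50, 7.92 and 7.29 on normal diet. In wild-type livers Mbl2 had 7.59, 8.00 and 8.18, against 7.74, 7.59 and 7.56. Again only the mutant diet groups were apart, since wild-type high-cholesterol array 1 lay among the normal-diet values. The change was 0.70 ± 0.20 in Lats2-CKO livers (limma, adjusted p = 0.153) and 0.50 ± 0.14 over both genotypes (adjusted p = 0.107), with 0.17 and 0.79 within the sets. Mbl1, the other mannose-binding lectin, was at −0.30 ± 0.14 over both genotypes, opposite in sign to Mbl2. C1ra, the C1r protease, was at 0.20 ± 0.14 and Masp1, a lectin pathway protease, at 0.02 ± 0.08. Cfb, factor B of the alternative pathway and the neighbour of C2 in the genome, was at 0.07 ± 0.10 with all 12 values between 10.63 and 11.14.

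The terminal pathway genes, whose products build the membrane pore, were mostly lower in Lats2-CKO livers on the high-cholesterol diet, with 5 of 6 lower and a median change of −0.22. In wild-type livers 3 were higher and 3 lower, with a median of −0.004. Without wild-type normal-diet array 3, only 2 of the 6 were higher there, with a median of −0.115. C8b, the beta chain of C8, had log2 values of 10.70, 11.001 and 10.76 in Lats2-CKO livers on the high-cholesterol diet, against 11.51, 11.31 and 11.29 on normal diet. In wild-type livers C8b had 10.62, 10.51 and 10.98, against 11.17, 11.24 and 10.82. Only wild-type normal-diet array 3 fell among the high-cholesterol values. The change in C8b was −0.46 ± 0.11 over both genotypes (limma, adjusted p = 0.0625), −0.55 ± 0.15 in Lats2-CKO livers (adjusted p = 0.140) and −0.37 ± 0.15 in wild-type livers (adjusted p = 0.432), with −0.65 and −0.24 over both genotypes within the sets. C6, which joins the growing pore after C5, had log2 values of 9.84, 9.78 and 9.97 in Lats2-CKO livers on the high-cholesterol diet, against 10.67, 10.89 and 10.52 on normal diet. In wild-type livers C6 had 9.72, 9.89 and 10.64, against 10.36, 10.22 and 9.70. The mutant groups were apart, and in wild type array 3 of each diet lay on the other diet's side. The change was −0.83 ± 0.23 in Lats2-CKO livers (limma, adjusted p = 0.142), −0.01 ± 0.23 in wild-type livers, where its sign turned under several alternative settings, and −0.42 ± 0.16 over both genotypes (adjusted p = 0.212), with −0.75 and −0.04 within the sets.

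The other terminal genes differed less. C8a, the alpha chain of C8, had log2 values of 10.43, 10.54 and 10.53 in Lats2-CKO livers on the high-cholesterol diet, against 10.62, 10.93 and 10.77 on normal diet. In wild-type livers C8a had 10.32, 10.46 and 10.69, against 10.46, 10.58 and 10.44. The mutant groups did not overlap, at −0.27 ± 0.11 (limma, adjusted p = 0.322), and the wild-type change was 0.001 ± 0.11. C8g, the gamma chain, showed the opposite split, with 11.03, 10.63 and 10.70 in Lats2-CKO livers on the high-cholesterol diet, against 11.02, 10.74 and 10.61 on normal diet. In wild-type livers C8g had 10.59, 10.69 and 10.72, against 11.12, 11.04 and 10.79. Only the wild-type diet groups were apart, at −0.32 ± 0.14 (limma, adjusted p = 0.459). C9, the subunit that forms the wall of the pore, had log2 values of 10.86, 11.15 and 11.11 in Lats2-CKO livers on the high-cholesterol diet, against 10.88, 10.87 and 10.88 on normal diet. In wild-type livers C9 had 10.55, 11.20 and 11.25, against 10.64, 10.68 and 10.67. It was the 1 terminal gene with a positive change over both genotypes, 0.25 ± 0.11 (adjusted p = 0.280), and its normal-diet values were much tighter than its high-cholesterol values. Hc, which encodes C5, was at −0.06 ± 0.08.

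Of the complement regulators, C4bp was lower and the other 3 had changes over both genotypes of −0.10 to 0.13. C4bp, the C4b-binding protein, had log2 values of 10.30, 10.44 and 10.16 in Lats2-CKO livers on the high-cholesterol diet, against 10.56, 10.77 and 11.14 on normal diet. In wild-type livers C4bp had 10.09, 10.33 and 10.34, against 10.62, 10.71 and 9.89. All high-cholesterol values lay below all normal-diet values other than wild-type array 3, which was the lowest of the 12. The change was −0.34 ± 0.15 over both genotypes (limma, adjusted p = 0.268), −0.52 ± 0.21 in Lats2-CKO livers (adjusted p = 0.313) and −0.15 ± 0.21 in wild-type livers, with −0.47 and −0.20 within the sets. Serping1, the C1 inhibitor, had log2 values of 11.68, 12.30 and 11.96 in Lats2-CKO livers on the high-cholesterol diet, against 11.74, 11.65 and 11.78 on normal diet. In wild-type livers Serping1 had 11.88, 11.78 and 11.85, against 11.97, 11.88 and 11.72, so the diets overlapped in both genotypes and the change over both was 0.12 ± 0.10. Cfi, the protease factor I, was at 0.13 ± 0.13 and Vtn, vitronectin, at −0.10 ± 0.07.

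F11 had the widest change of all members. It had log2 values of 7.73, 7.72 and 7.27 in Lats2-CKO livers on the high-cholesterol diet, against 9.00, 9.07 and 9.03 on normal diet. In wild-type livers F11 had 7.40, 7.45 and 8.11, against 8.36, 8.16 and 7.30. The mutant normal-diet arrays were the highest of the 12. In wild type, normal-diet array 3 was the lowest of the genotype, and high-cholesterol array 3 was close to the other normal-diet values. In Lats2-CKO livers F11 was 2.75-fold lower, at −1.46 ± 0.27, with a 95% interval of −2.05 to −0.87 (limma, adjusted p = 0.0536). Over both genotypes it was at −0.87 ± 0.19 (adjusted p = 0.0522), and in wild-type livers at −0.29 ± 0.27, with an interval of −0.87 to 0.30 (adjusted p = 0.760). Within the sets the change in Lats2-CKO livers was −1.30 and −1.54, and over both genotypes −1.08 and −0.53. The first mutant value rests on high-cholesterol array 1 alone for that diet. The second rests on normal-diet array 3 alone for normal diet. In wild-type livers the sign turned between the sets for F11 (−0.86 and 0.48), C6 (−0.57 and 0.56), C2 (1.15 and −0.62), C4bp (−0.58 and 0.45) and Mbl2 (−0.07 and 0.53). Normal-diet array 3 was the 1 wild-type normal-diet array in the set with the lower medians. High-cholesterol array 1 was the 1 wild-type high-cholesterol array in the set with the higher medians.

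**Figure D2:**
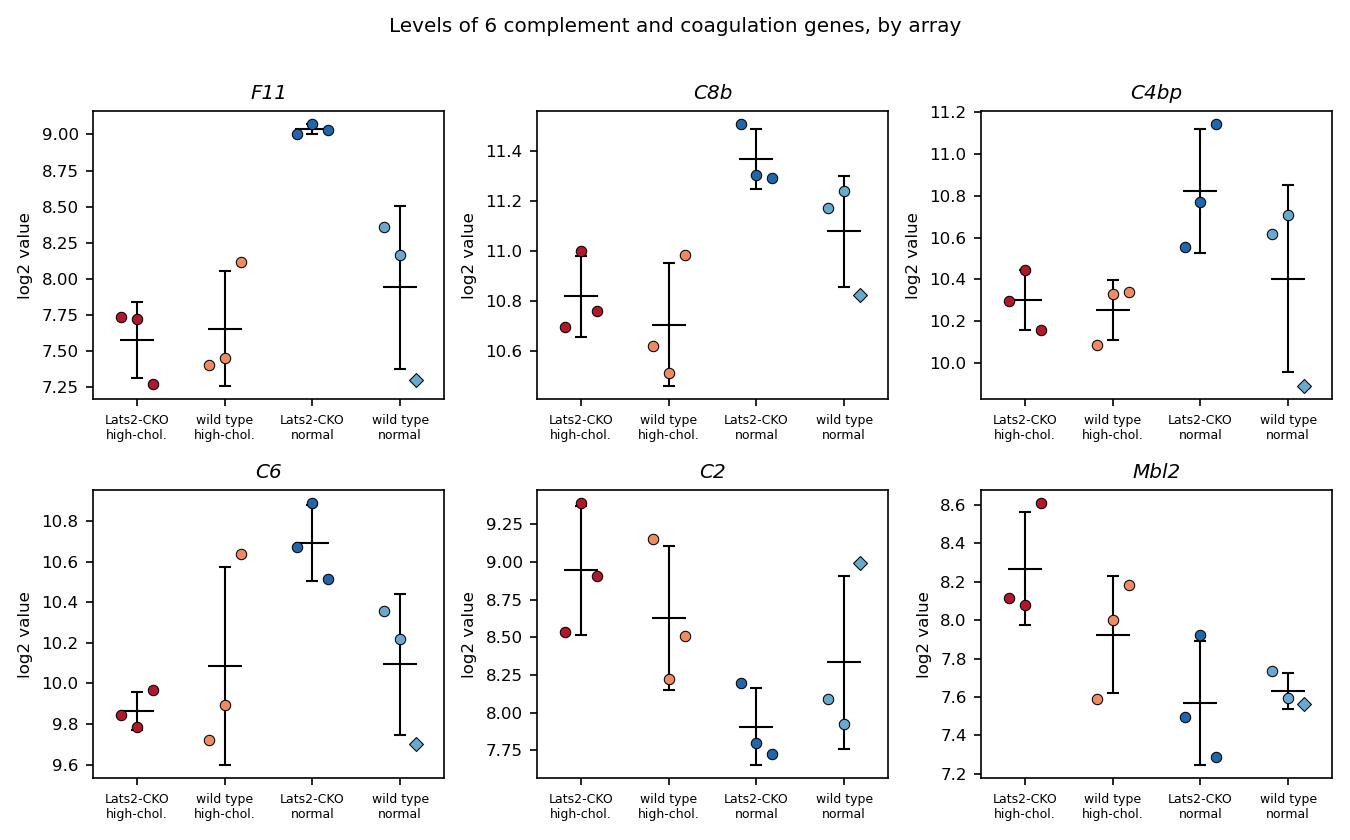
Log2 values of F11, C8b, C4bp, C6, C2 and Mbl2 on each array (points) by group, with bars for the mean ± SD of 3 arrays; diamonds are wild-type normal-diet array 3. F11 lies between 9.00 and 9.07 in Lats2-CKO livers on normal diet, above every other array, and the diamond stands away from its group mates for F11, C6, C4bp and C2.

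The other clotting genes of the contact system and fibrin crosslinking had small positive changes. Kng1, kininogen, had log2 values of 10.67, 10.58 and 10.70 in Lats2-CKO livers on the high-cholesterol diet, against 10.48, 10.66 and 10.79 on normal diet. In wild-type livers Kng1 had 10.58, 10.85 and 10.76, against 10.36, 10.46 and 10.57. The wild-type groups were just apart, by 0.27 ± 0.11 (limma, adjusted p = 0.434), and the mutant change was 0.01 ± 0.11. F13b, the carrier subunit of factor XIII that crosslinks fibrin, had log2 values of 9.90, 9.83 and 9.83 in Lats2-CKO livers on the high-cholesterol diet, against 9.78, 9.29 and 9.17 on normal diet. In wild-type livers F13b had 9.88, 9.65 and 9.86, against 9.57, 9.60 and 9.74. High-cholesterol values ran from 9.65 to 9.90, and normal-diet array 1 of Lats2-CKO and array 3 of wild type lay among them. The change was 0.30 ± 0.10 over both genotypes (limma, adjusted p = 0.154) and 0.44 ± 0.14 in Lats2-CKO livers. F12, factor XII, was at 0.07 ± 0.10 and F5, the cofactor factor V, at 0.12 ± 0.10 over both genotypes.

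Among the vitamin K dependent factors, F7 and F9 were higher and F2 and F10 were near 0. F9, factor IX, had log2 values of 10.78, 10.72 and 10.93 in Lats2-CKO livers on the high-cholesterol diet, against 10.51, 10.59 and 10.94 on normal diet. In wild-type livers F9 had 10.50, 10.91 and 11.08, against 10.15, 10.22 and 10.76, and the diets overlapped in both genotypes. Its change was 0.46 ± 0.19 in wild-type livers (limma, adjusted p = 0.447) and 0.13 ± 0.19 in Lats2-CKO livers. F7, factor VII, which starts clotting with tissue factor, was at 0.34 ± 0.14 over both genotypes (adjusted p = 0.251). F2, prothrombin, was at 0.03 ± 0.07 and F10, factor X, at −0.05 ± 0.10. Of the fibrinogen chains Fgb and Fgg were steady, with ranges over the arrays of 0.23 and 0.27, and Fga ranged over 0.68. Fga was at 0.06 ± 0.13, Fgb at 0.01 ± 0.06 and Fgg at 0.05 ± 0.06, with all values of Fgb between 12.56 and 12.79. Of the 5 anticoagulants, Proc (protein C), Pros1 (protein S), Serpinc1 (antithrombin) and Serpind1 (heparin cofactor II) had changes of 0.03 to 0.16 and Proz (protein Z) one of −0.07. Plg and Serpinf2, the inhibitor of plasmin, were at 0.07 ± 0.06 and −0.03 ± 0.09.

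**Figure D3:**
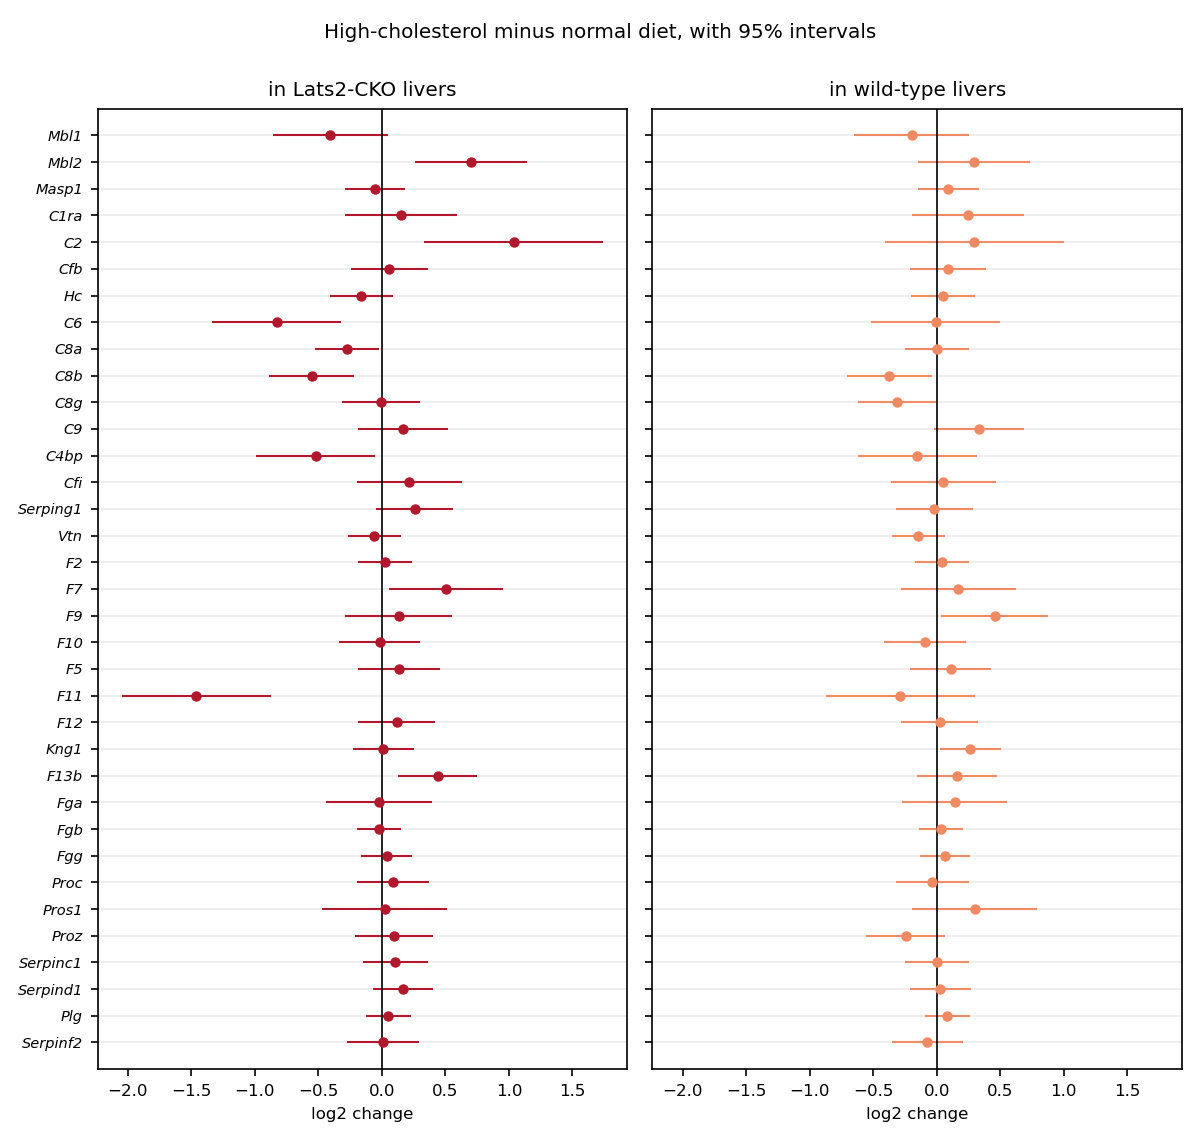
Log2 change on the high-cholesterol diet against normal diet for each member (points) with 95% intervals (lines), in Lats2-CKO livers (left) and wild-type livers (right). F11 in Lats2-CKO livers, at −1.46, lies farthest from 0, and in wild-type livers every interval is within 2-fold (−1 to 1).

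The diet result depended on several choices, wild-type normal-diet array 3 among them. Without that array, 4 members of 35 (11.4%) passed over both genotypes, against 7.24% of all genes (limma). With all arrays kept, a fit with array weights also gave 4, against 6.18% of all genes. With array 3 left out C2 rose, by 0.83 ± 0.20 (adjusted p = 0.0332), and C8b, C4bp and F11 fell. F11 fell by 1.03 ± 0.14 (limma, adjusted p = 0.0033, from 0.0033 to 0.143 over the 22 alternative settings), C8b fell by 0.53 ± 0.10 (0.0145, range 0.0145 to 0.169), and C4bp fell by 0.47 ± 0.11 (0.0352, range 0.0167 to 0.486). C2 ranged from 0.0332 to 0.335. In Lats2-CKO livers alone F11 passed, 1 member of 35 (2.86%) against 2.11% of all genes. It was at −1.46 ± 0.19 (limma, adjusted p = 0.00498, range 0.00498 to 0.168). Array 3 of wild type is not part of that comparison, so the change stayed the same. Only the SE differed, at 0.27 with all arrays. In wild-type livers no member passed without it, against 2.33% of all genes, and 7 members and 17.3% of all genes had an unadjusted p under 0.05. The wild-type changes without it were −0.61 ± 0.21 for F11, −0.50 ± 0.15 for C8b and 0.65 ± 0.18 for F9 (adjusted p = 0.182, 0.127 and 0.0941). C4bp was at −0.41 ± 0.17 and C2 at 0.62 ± 0.29 in the same fit (limma, adjusted p = 0.244 and 0.315).

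The genotype comparison asked what loss of Lats2 did to these genes. Over both diets no member passed (limma), against 0.00451% of all genes. The 95% interval lay within 1.5-fold for 34 of 35 members (97.1%), against 88.4% of all genes. It lay within 2-fold for all members, against 97.2% of all genes. Just 1 member, F11, had an unadjusted p under 0.05, against 5.97% of all genes, 2.2% higher and 3.77% lower. It was at 0.51 ± 0.19 (adjusted p = 0.785), with an interval of 0.09 to 0.92. The median change was 0.06, with 25 higher and 10 lower, beside 0.002 for all genes. Fga, the fibrinogen alpha chain, had log2 values of 11.16, 11.66 and 11.42 in Lats2-CKO livers on the high-cholesterol diet, against 10.998, 11.31 and 11.45 in wild-type livers. On normal diet it had 11.02, 11.68 and 11.60 in Lats2-CKO livers, against 11.02, 11.11 and 11.21 in wild-type livers. The genotypes overlapped on both diets, and the change was 0.24 ± 0.13 (limma, adjusted p = 0.858). Hc was at 0.16 ± 0.08, C8b at 0.20 ± 0.11 and C8a at 0.15 ± 0.08.

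On normal diet the terminal pathway genes were higher in Lats2-CKO livers, with 5 of 6 higher, all 5 without overlap between the groups, and a median change of 0.27 (0.22 without wild-type array 3). The same Lats2-CKO normal-diet arrays also enter the diet change in Lats2-CKO livers and the interaction. Those results are therefore not independent of these, for the terminal genes or for F11. Over all members 7 were higher without overlap (Hc, C6, C8a, C8b, C9, F11 and Fgb), against 5.96% of all genes, and none was lower, against 7.36%. No member passed (limma), against 0.0135% of all genes, and 4 (F11, C6, C8a and Hc, 11.4%) had an unadjusted p under 0.05, all higher, against 8.99% of all genes, 3.54% higher and 5.45% lower. F11 was at 1.09 ± 0.27, or 2.14-fold higher (adjusted p = 0.236), and at 0.77 ± 0.21 without wild-type array 3. C6 was at 0.60 ± 0.23 (limma, adjusted p = 0.453) and at 0.40 ± 0.23 without that array. Hc had log2 values of 11.89, 11.83 and 11.93 in Lats2-CKO livers, against 11.61, 11.70 and 11.54 in wild-type livers, a change of 0.27 ± 0.11 (adjusted p = 0.519). C8a was at 0.28 ± 0.11 (adjusted p = 0.475) and C8b at 0.29 ± 0.15 (adjusted p = 0.627), with C8b at 0.16 ± 0.15 without array 3. C4bp was at 0.42 ± 0.21 (adjusted p = 0.611), and at 0.16 ± 0.17 without array 3. C8g was the 1 terminal gene that was lower, at −0.20 ± 0.14. On the same arrays 18 of 19 macrophage markers (median −0.60) and 11 of 13 endothelial markers (median −0.54) were lower in Lats2-CKO livers, and none passed. All 7 adipose tissue markers were higher (median 0.55), and 6 were (median 0.51) without wild-type array 3. Of 11 chaperones of the endoplasmic reticulum 10 were higher (median 0.54), but 6 (median 0.11) without that array. The part of these lists in the terminal pathway values was not tested.

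On the high-cholesterol diet no member differed between the genotypes by more than its arrays overlapped. The median size of a change was 0.06, beside 0.09 over all genes. The 95% interval lay within 1.5-fold for 30 of 35 members (85.7%), against 76.7% of all genes. It lay within 2-fold for 34 (97.1%), against 94.5% of all genes. No member's groups were apart, against 4.07% of all genes higher and 3.37% lower. No member passed (limma) and none had an unadjusted p under 0.05, against 2.93% of all genes, 0.987% higher and 1.94% lower. C2 had the widest interval, from −0.39 to 1.02 around 0.31. Mbl2 was at 0.34 ± 0.20, Serping1 at 0.14 ± 0.14 and C6 at −0.22 ± 0.23, the last becoming 0.06 without wild-type array 3 on this diet. With 1 array left out Mbl2 ranged from 0.17 to 0.47, C2 from 0.09 to 0.58, Proz from 0.09 to 0.33 and Serping1 from −0.02 to 0.29. Hc had log2 values of 11.56, 11.67 and 11.94 in Lats2-CKO livers, against 11.56, 11.61 and 11.83 in wild-type livers, a change of 0.06 ± 0.11. Proz, a cofactor in the inhibition of factor X, had log2 values of 9.67, 10.14 and 9.98 in Lats2-CKO livers, against 9.57, 9.76 and 9.88 in wild-type livers. The groups overlapped, at 0.20 ± 0.14. F11 was at −0.08 ± 0.27.

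**Figure D4:**
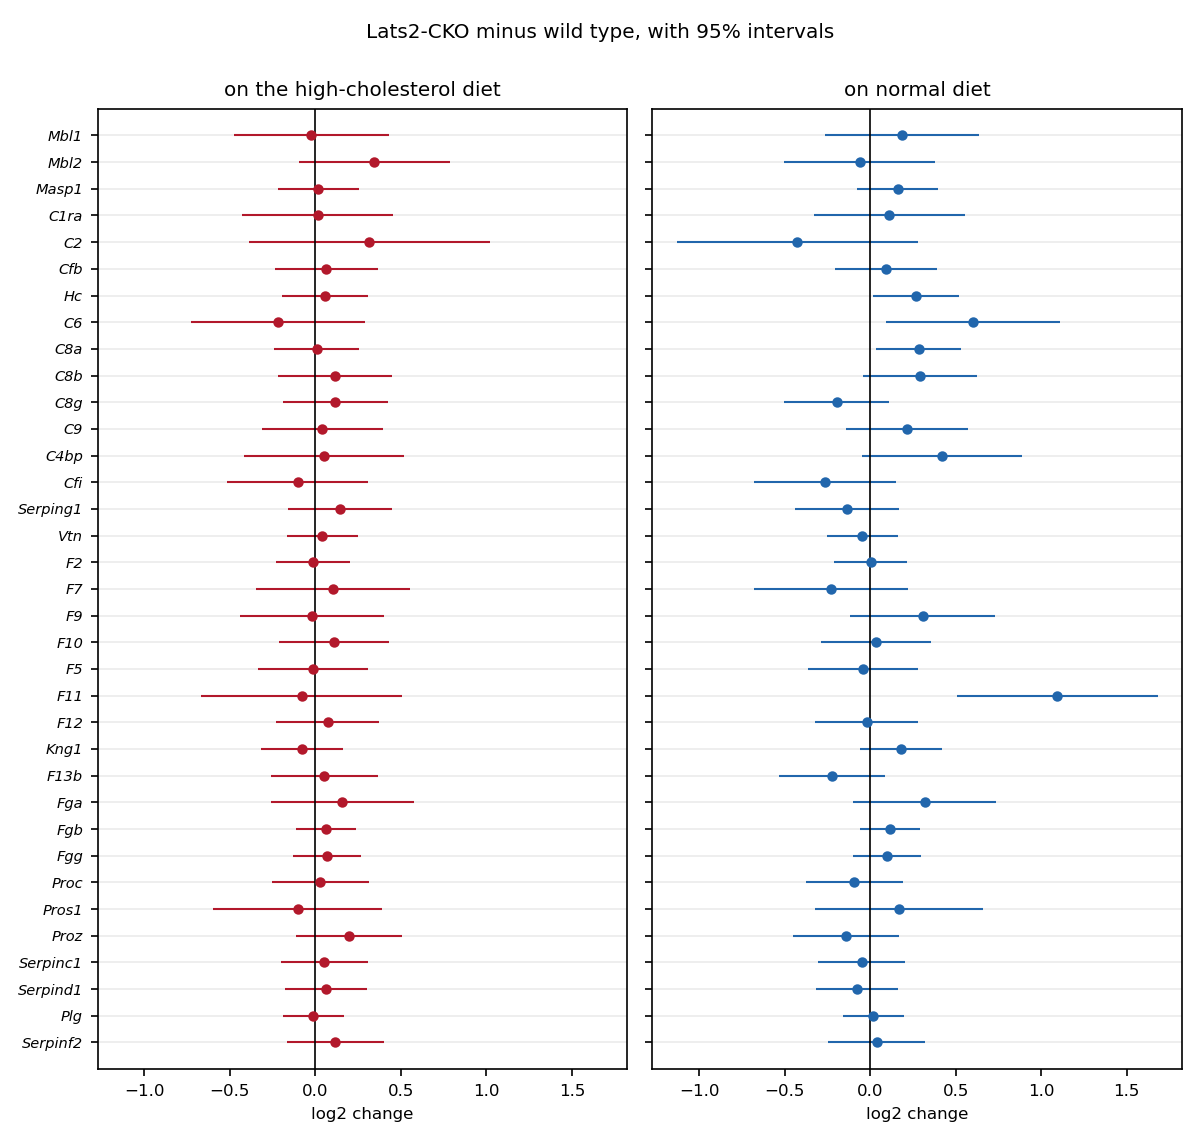
Log2 change in Lats2-CKO against wild-type livers for each member (points) with 95% intervals (lines), on the high-cholesterol diet (left) and on normal diet (right). F11 lies at 1.09 on normal diet and at −0.08 on the high-cholesterol diet.

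Whether the diet acted differently in the genotypes was tested as an interaction. No member passed (limma), against 0.00451% of all genes, and 2 members (5.71%) had an unadjusted p under 0.05, against 5.62% of all genes, 3.37% positive and 2.25% negative. Both were negative, F11 at −1.17 ± 0.38 (limma, adjusted p = 0.752) and C6 at −0.82 ± 0.33 (limma, adjusted p = 0.832). Without wild-type normal-diet array 3 the F11 interaction was −0.85 ± 0.29 and that of C6 −0.62 ± 0.31. C8a was at −0.28 ± 0.16, Kng1 at −0.26 ± 0.15 and Proz at 0.34 ± 0.20. Proz had log2 values of 9.85, 9.62 and 10.03 in Lats2-CKO livers on normal diet, against 10.0005, 9.98 and 9.95 in wild-type livers on that diet. The interval of the interaction lay within 2-fold for 30 of 35 members (85.7%), against 82.5% of all genes. It lay within 1.5-fold for 15 (42.9%), against 48.2% of all genes, so smaller differences between the genotypes could not be told.

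Related genes outside the 39 were read from further lists. Of 9 genes listed for the vitamin K cycle and the secretion of clotting factors, 2 fell on the high-cholesterol diet, against 0.87% of all genes. Without wild-type normal-diet array 3 the count was 3, against 4.1% of all genes. The added gene was Hgfac, the activator of hepatocyte growth factor, whose product belongs to neither process. Mcfd2 and Lman1 encode partner proteins that carry factors V and VIII out of the endoplasmic reticulum. Mcfd2 had log2 values of 6.69, 6.59 and 6.66 in Lats2-CKO livers on the high-cholesterol diet, against 7.55, 7.51 and 7.81 on normal diet. In wild-type livers Mcfd2 had 6.42, 6.59 and 6.55, against 7.24, 7.23 and 6.65. All high-cholesterol values but 2 mutant ones lay below the lowest normal-diet value, that of wild-type array 3. It fell by 0.75 ± 0.11 over both genotypes (limma, adjusted p = 0.0241) and by 0.98 ± 0.15 in Lats2-CKO livers (adjusted p = 0.0332), and was at −0.52 ± 0.15 in wild-type livers (adjusted p = 0.329), where without normal-diet array 3 it fell by 0.72 ± 0.11 (adjusted p = 0.0133). Lman1 had log2 values of 10.33, 10.41 and 10.38 in Lats2-CKO livers on the high-cholesterol diet, against 10.83, 10.72 and 10.79 on normal diet. In wild-type livers Lman1 had 10.31, 10.31 and 10.54, against 10.66, 10.80 and 10.53. It fell by 0.34 ± 0.07 over both genotypes (limma, adjusted p = 0.0461), and the wild-type groups overlapped at array 3 of each. F5, whose product they carry, was at 0.12 ± 0.10. Of 11 chaperones of the endoplasmic reticulum, 7 fell on the diet (10 without wild-type normal-diet array 3) and all 11 were lower. The share of all genes that fell over both genotypes was 0.87%, and 4.1% without that array. The mean log2 value of the chaperones was 8.41 to 8.81 on the high-cholesterol arrays. It was 10.03 to 10.35 on the normal-diet arrays other than wild-type array 3, which was at 8.60. The part of these chaperones, and of that array, in the changes of Mcfd2, Lman1 and F11 was not tested.

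**Figure D5:**
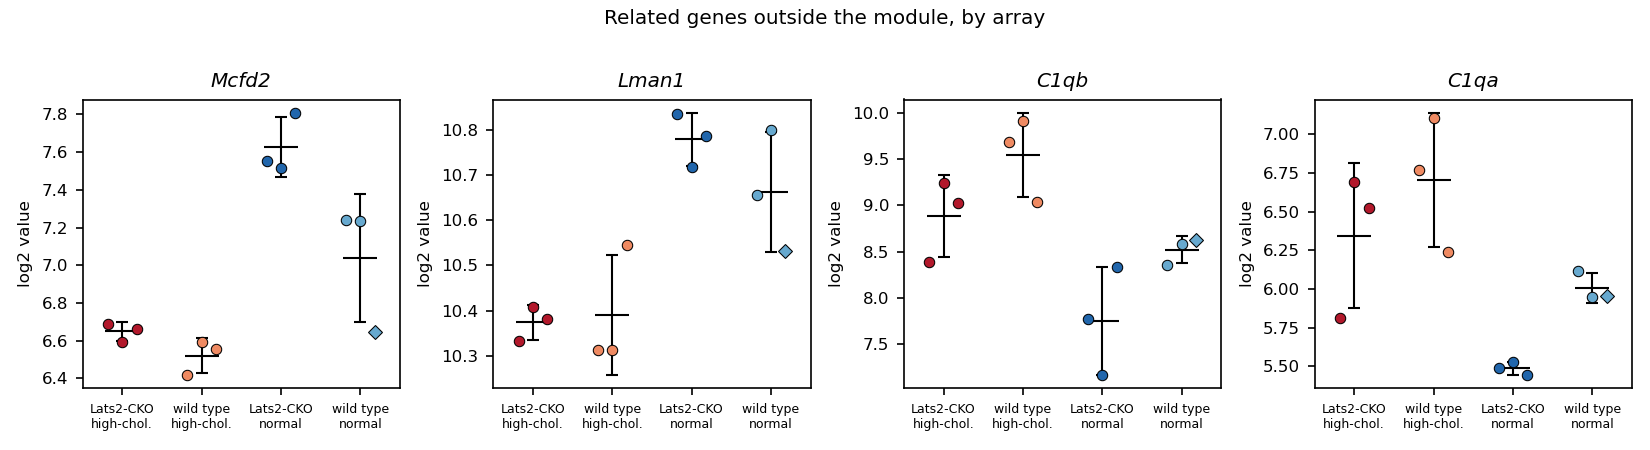
Log2 values of Mcfd2, Lman1, C1qb and C1qa on each array (points) by group, with bars for the mean ± SD of 3 arrays; diamonds are wild-type normal-diet array 3. Mcfd2 lies between 6.42 and 6.69 on the high-cholesterol diet, and C1qb reaches 9.92 in wild-type livers on that diet.

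Among 27 other complement genes, 21 were higher on the high-cholesterol diet (median change 0.24), and 1 passed, against 0.365% of all genes higher. Without wild-type normal-diet array 3 the count was 3 (C1qa and Vsig4 also), against 3.14% of all genes higher. C1qb, a chain of the C1q recognition protein made largely by macrophages, had log2 values of 8.39, 9.24 and 9.03 in Lats2-CKO livers on the high-cholesterol diet, against 7.77, 7.17 and 8.33 on normal diet. In wild-type livers C1qb had 9.69, 9.92 and 9.04, against 8.35, 8.58 and 8.63. The diets were apart within each genotype, and C1qb rose by 1.08 ± 0.22 over both (limma, adjusted p = 0.0461). C1qa, a further C1q chain, was at 0.78 ± 0.17 (adjusted p = 0.0513), and Vsig4, a complement receptor of Kupffer cells, at 0.93 ± 0.21 (adjusted p = 0.0615). Of 19 macrophage and Kupffer cell markers, Vsig4 among them, 18 were higher on the diet (median change 1.01). Of these 5 passed, and 8 without that array, against 0.365% and 3.14% of all genes higher. The 19 markers had means of 6.49 to 8.06 on the high-cholesterol arrays and 5.90 to 6.71 on the normal-diet arrays. The part of the macrophage markers in the C1q values was not tested, and in whole liver more cells of a type and more RNA per cell cannot be told apart. In 21 other clotting and fibrinolysis genes none passed (limma). At an unadjusted p under 0.05, 3 were higher and 3 lower, against 7.56% and 10.4% of all genes. Without that array Fgl1 fell, against 4.1% of all genes. The 14 hepatocyte markers had a median diet change of 0.02, and none passed, while Tat fell without that array.

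The calls of related genes were near the threshold. Over 22 alternative settings Mcfd2 passed in 15 over both genotypes (adjusted p 0.000315 to 0.0704), Lman1 in 8 (0.0123 to 0.126) and C1qb in 7 (0.0180 to 0.133), with the same direction in all. Of 23 acute phase genes none passed in any comparison of all 12 arrays. Without wild-type normal-diet array 3, Lbp rose and Hp fell on the diet over both genotypes, against 3.14% of all genes higher and 4.1% lower. In wild-type livers Il1r1 rose without it, against 0.789% of all genes higher. On normal diet 19 of the 23 were higher in Lats2-CKO than in wild-type livers, with a median change of 0.47, but without that array 14 were, with a median of 0.04. Saa4, a serum amyloid A gene, was at 0.57 ± 0.13 there (limma, adjusted p = 0.222) and at 0.53 ± 0.15 without the array, and the groups did not overlap. Of 11 liver transcription factors none passed on diet, and Foxa3 had the smallest p, at −0.74 ± 0.31 (adjusted p = 0.247).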

How the data were processed

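Total RNA from livers of male mice (12 arrays, 3 in each of 4 groups) was hybridised to Affymetrix arrays after labelling of 250 ng, per the labels' protocols. The deposited values are log2 expression per probe set, made by the authors by RMA with Partek 6.6 software (per the submitters' processing notes). The log2 scale was read from the range of the values, 1.94 to 14.2. RMA settings and the genome build of the probe sets are not given in the sources used here. Precision is limited by the number of arrays.

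Of 41345 probe sets, 23521 had 1 gene symbol, 1814 several and 16010 none. Symbols were updated by gene identifier in a RefSeq table for 23328. The brightest probe set stood for a gene, which left 22180 genes. Changes were fitted over all genes and all 12 arrays with limma 3.58.1 in R 4.3.3 (lmFit, eBayes, 4 group means) and adjusted by Benjamini-Hochberg, with a threshold of 0.05. ± is SE for changes. The fit was tested on simulated data. The members, lists and promoter motifs were chosen with earlier results of these data known. Members were described in full if they passed, or were among the 5 with the smallest p in a comparison; the rest are given by range, change or count. From each related list the members that passed, or else the 3 with the smallest p, could be named, and Lats2 always; C1qa, Vsig4, Saa4 and genes that passed without 1 array were named after their values were seen where they fall outside this.

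Alternatives were a fit on the compared groups only, the replicate number as a block, the array sets as a block (also without wild-type normal-diet array 3), a trended and robust prior, array weights, dim genes left out (mean under the 30th percentile, 3.04), averaging all probe sets of a gene, quantile normalisation, median centring and each array left out. The replicate block without wild-type normal-diet array 3 was added after seeing the data.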

Additional observations from a re-analysis of the deposited data

How the results depend on the processing

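Of the 7 comparisons, those of genotype, the interaction and diet in wild type had 0 members passing in every alternative run. For diet over both genotypes the number of members passing was 0, and became 4 with array weights, 1 with a trended and robust prior, 1 with dim genes left out, 3 with the array-set block without wild-type normal-diet array 3, and 3 with the replicate block without that array (chosen after seeing the data). Leaving out each array in turn gave 0 to 4, namely 2 when array 3 of the wild-type high-cholesterol group was dropped and 4 when array 3 of wild-type normal diet was. For diet in Lats2-CKO livers it became 2 in a fit of only these groups (C6 and F11), 2 with the array-set block without wild-type normal-diet array 3 (C4bp and F11), and 1 each with the trended prior, array weights, dim genes left out and the replicate block without that array, and 0 to 1 with 1 array left out. F13b passed without Lats2-CKO normal-diet array 1. The median diet change of the members ranged from 0.0207 to 0.108 in Lats2-CKO livers with 1 array left out (0.108 without high-cholesterol array 1), and in wild type was −0.0525 with the array-set block without normal-diet array 3. The diet change of C6 in wild type, −0.01 in the reported fit, had no settled direction. It was 0.0137 with the array-set block, 0.0709 with array weights, 0.0051 after quantile normalisation, 0.0142 after median centring, and −0.287 to 0.172 with 1 array left out. Between genotypes on the high-cholesterol diet, leaving out 1 array moved Serping1 from −0.0156 (without Lats2-CKO array 2) to 0.292 and C6 from −0.402 to 0.0571 (without wild-type array 3), so both could reverse. The cause of these differences was not tested.

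Counts over all genes moved more: 6 to 1605 for diet over both genotypes (274 in the reported fit), 5 to 573 in Lats2-CKO (60), 0 to 516 in wild type (0), 1 to 8 for genotype over both diets (1), 1 to 17 on normal diet (3), 0 to 22 on the high-cholesterol diet (0) and 0 to 3 for the interaction (1). The replicate block gave 0 members in every comparison, 311 genes for diet over both genotypes and 58 in Lats2-CKO. With it F11 in Lats2-CKO had an adjusted p of 0.0695, and C1qb, Lman1 and the Lats2-CKO change of Mcfd2 no longer passed (0.0584, 0.0602 and 0.0545). Deviations of same-numbered arrays correlated at 0.00237 to 0.176, and 9 of 12 arrays correlated best with their own number. The reported fit did not take the numbers as pairs, and these values do not settle whether they are. All arrays numbered 1 were in the set with the higher medians, and all arrays numbered 3 in the set with the lower medians. With 3 arrays a group, changes under about 1.5-fold in a single gene were mostly within the intervals.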
